A study of Mus musculus with 14 samples.

Results

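The 9 genes described here belong to the extracellular control of bone morphogenetic protein (BMP) signalling and were followed across tumor cells and fibroblasts: the ligand genes Bmp2, Bmp4 and Bmp7, the protease gene Bmp1, the antagonist and binding-protein genes Grem1, Fst, Fstl1 and Fstl3, and the target gene Id4. They were taken by gene name from the 36413 gene names of the arrays, all 9 were found, and all 9 were among the 25840 names tested. The cells were D2A1, a mouse breast cancer line, and mouse embryonic fibroblasts (MEFs) of genotype Hsf1 +/+ (WT) or Hsf1 -/- (null), where Hsf1 encodes the transcription factor that drives the heat shock response. Tumor cells grew alone, with WT MEFs or with null MEFs, and MEFs of each genotype grew alone or with tumor cells. After 72 hours in DMEM with fetal calf serum the cell types of a co-culture were separated by sorting. The study asked how the effect of co-culture on each cell type depends on HSF1 in the fibroblasts.

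The 7 groups held 2 arrays each, A and B. The MEF partners of profiled tumor cells had first received mitomycin C, a DNA crosslinker that stops division, at 10 ug/ml for 2 hours; no such treatment is named for the MEFs that were profiled. Whether arrays A and B came from separate cultures is not stated, so the p-values cover no more than the variation from array to array, which may be technical. The number of MEF lines or embryos per genotype is also not stated, so genotype and line cannot be told apart.

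BMPs are secreted dimers that join type I and type II receptor kinases at the cell surface, and the receptors then phosphorylate SMAD proteins that enter the nucleus and switch on target genes, among them the Id genes. Outside the cell, antagonists such as gremlin bind BMPs and keep them from their receptors, follistatin and its relatives bind activins and some BMPs, and proteases of the BMP1 family release BMPs by cutting the antagonist chordin. In connective tissue and tumor stroma, fibroblasts are a known source of both BMPs and BMP antagonists.

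Several arrays need a remark before the values. Hsf1 mRNA itself was 1.83 ± 0.12 lower on the log2 scale in null than in WT MEFs grown alone (SE of the difference; adjusted p = 1.11e-06), at 10.07 and 9.97 against 12.01 and 11.69, and its probe stayed above background in null MEFs. The scanner files of 2 arrays, tumor cells alone A and tumor cells with null MEFs A, were faulty, so the values below are those of the authors' log2 table and the other 12 arrays served for single probes. Fibroblast genes appeared in sorted tumor cells: of 14 fibroblast markers, 7 were well above background in tumor cells alone and 13 in tumor cells with WT MEFs, and their summed level rose from between 12.92 and 12.97 to between 16.23 and 16.29 (log2). Dcn, Lum, Fap and Postn were among those not above background in tumor cells alone. Over 326 gene names at least 32-fold higher in WT MEFs than in tumor cells, the level gained by tumor cells with WT MEFs had a median of 7.35% and 7.36% of the MEF level on arrays A and B. With null MEFs it was 9.25% and 22.9% over 250 names, so array B of tumor cells with null MEFs stood apart. The opposite share, of tumor-typical genes in sorted MEFs, was 37.6% on both arrays of WT MEFs (77 names) and 8.83% and 9.43% in null MEFs (90 names). The summed level of 12 epithelial markers rose in WT MEFs from between 10.35 and 10.49 to between 16.18 and 16.38, and in null MEFs from between 12 and 12.27 to between 14.77 and 15.34 (log2). How far RNA of the partner cells enters each result below was not tested beyond the shares given. Epcam and Cdh1, defining genes of epithelial cells, were not above background in any of the 3 tumor cell groups.

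**Figure D1:**
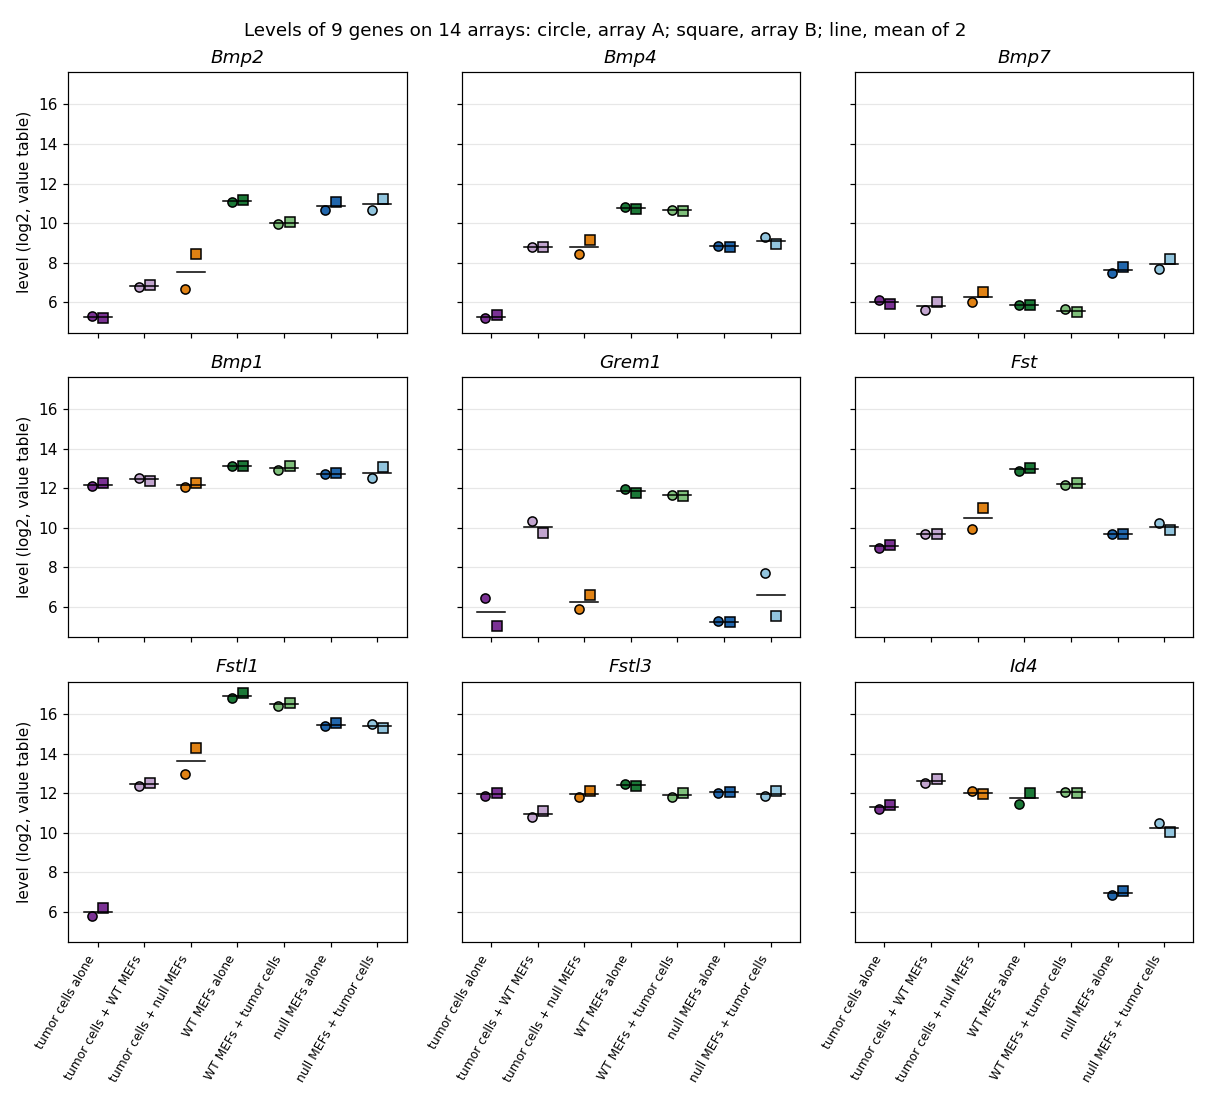
Level of each gene (log2, vertical axis) on every array in 7 groups (horizontal axis), with circles for array A, squares for array B and a line at the mean of both. Fstl1 spans the widest range, from 5.80 in tumor cells alone to 17.05 in WT MEFs alone, and Id4 is low in null MEFs alone only.

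Grown alone, tumor cells carried less of most of these transcripts than WT MEFs, while the picture against null MEFs was more mixed. Bmp1, Bmp2, Bmp4 and Fstl1 were the genes that passed as lower against both genotypes. Against WT MEFs 7 of the 9 genes were lower and none was higher, where 51.5% of all names tested passed in this comparison in one direction or the other. Against null MEFs 5 were lower and Id4 was higher, where 52.7% of all names passed. The median difference over the 9 genes was -3.90 against WT MEFs and -0.62 against null MEFs, beside 0.08 and 0.07 over all names tested.

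Bmp2 encodes a ligand of bone and heart development. Its level was 5.29 and 5.19 in tumor cells alone, not well above background, while WT MEFs alone had 11.06 and 11.18 and null MEFs alone 10.67 and 11.05. Bmp2 was thus at least 58.9-fold lower in tumor cells than in WT MEFs (log2 difference -5.88 ± 0.44, adjusted p = 1.12e-06) and at least 49.1-fold lower than in null MEFs (-5.62 ± 0.44, adjusted p = 1.59e-06). Such a fold is the fitted estimate, called a lower bound because the dim group may lie below what the array can read. It is taken against the gene's own dim value or the lowest value measured on the array where that is higher. The bound does not cover the error of the fit, whose 95% interval for Bmp2 against WT MEFs was -6.85 to -4.91. The genotypes did not differ beyond their spread grown alone (0.26 ± 0.44, 95% interval -0.71 to 1.23).

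Bmp4, a ligand that acts in early mesoderm and many organs, was measured by 2 probes that the authors' table averages. The probe at chr14:47003198-47003257 (mm9) was not well above background on any of the 12 arrays with a sound scanner file, with signals of 3.59 to 9.21. The probe at chr14:47003391-47003450 gave signals of 164773 and 117392 in WT MEFs grown alone, 11896 and 7785 in null MEFs alone, and 16.1 in tumor cells alone B, where it was not well above background. The averaged log2 level was 10.82 and 10.70 in WT MEFs, 8.83 and 8.81 in null MEFs and 5.19 and 5.33 in tumor cells, 3 groups in clear order. Because a blank probe enters the average, the table's differences for Bmp4 are smaller than those of the bright probe, and both are given below.

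Bmp7, a ligand known for kidney and eye development, was low in all groups. It stood at 6.12 and 5.88 in tumor cells alone and at 5.83 and 5.84 in WT MEFs alone, a difference of 0.17 ± 0.22 that did not pass (adjusted p = 0.561). Null MEFs alone had 7.46 and 7.80, above every array of the other 2 cell types grown alone. Tumor cells alone were 1.63 ± 0.22 below null MEFs (adjusted p = 1.10e-04).

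Bmp1 is not a ligand despite its name; it encodes the metalloprotease that trims procollagens. Its levels were even, with 12.10 and 12.26 in tumor cells alone, 13.11 on both arrays of WT MEFs alone and 12.73 and 12.76 in null MEFs alone. Tumor cells were 0.93 ± 0.18 lower than WT MEFs (adjusted p = 0.00116) and 0.56 ± 0.18 lower than null MEFs (adjusted p = 0.0196). The second call was lost when any of 3 arrays was left out, with adjusted p = 0.101 without tumor cells alone A, 0.0637 without null MEFs alone A and 0.0803 without null MEFs alone B. On the 12 sound scanner arrays the adjusted p was 0.0712 against WT MEFs and 0.347 against null MEFs.

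Grem1 encodes gremlin, a secreted antagonist of BMP2, BMP4 and BMP7. It read 11.98 and 11.79 in WT MEFs alone, and was not well above background in null MEFs alone (5.29 and 5.23) or in tumor cells alone (6.43 and 5.06). The last 2 groups overlap, and tumor cells were at least 70.7-fold lower than WT MEFs (-6.14 ± 0.61, adjusted p = 1.15e-05).

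Fst encodes follistatin, which binds activins tightly. Its level in tumor cells alone was 8.96 and 9.16, in null MEFs alone 9.69 on both arrays, and in WT MEFs alone 12.90 and 13.03. Tumor cells were 3.90 ± 0.26 below WT MEFs (14.95-fold, adjusted p = 5.51e-07), while the 0.62 ± 0.26 by which they lay below null MEFs did not pass (adjusted p = 0.0693).

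Fstl1, a secreted follistatin-like glycoprotein of mesenchymal cells, showed the widest gap. Tumor cells alone had 5.80 and 6.20, WT MEFs alone 16.83 and 17.05, and null MEFs alone 15.39 and 15.54. Tumor cells were lower by 10.94 ± 0.33 against WT MEFs (adjusted p = 2.72e-09) and by 9.46 ± 0.33 against null MEFs (adjusted p = 6e-09). Of the 9 genes it was the one whose levels separated tumor cells from MEFs by the largest margin.

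Fstl3, a follistatin relative that binds activins and myostatin, varied little among the cells grown alone. It lay at 11.87 and 12.01 in tumor cells alone, 12.47 and 12.39 in WT MEFs alone and 12.02 and 12.08 in null MEFs alone. The 0.49 ± 0.15 by which tumor cells lay below WT MEFs passed (adjusted p = 0.0202), but not without tumor cells alone A (0.105), WT MEFs alone A (0.0958) or WT MEFs alone B (0.0552), nor on the 12 scanner arrays (0.381).

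Id4 encodes a helix-loop-helix protein that holds back other transcription factors. It was high in tumor cells alone (11.19 and 11.41) and in WT MEFs (11.48 and 12), and far lower in the null genotype (6.86 and 7.03). Tumor cells were 4.36 ± 0.19 above null MEFs (20.5-fold, adjusted p = 2.31e-08). They lay 0.44 ± 0.19 below WT MEFs, which did not pass (adjusted p = 0.0753) and did pass without WT MEFs alone A (-0.70, adjusted p = 0.0167).

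Between the MEF genotypes grown alone, 6 of the 9 genes differed, beside 33.8% of all names tested. Bmp4, Grem1, Fst, Fstl1 and Id4 were higher in WT MEFs, and Bmp7 was lower. Bmp1, Bmp2 and Fstl3 did not pass. The median over the 9 genes was 1.48, beside -0.03 over all names.

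Grem1 differed most, at least 98.6-fold (6.62 ± 0.61, adjusted p = 1.21e-05), with the null group not above background. Id4 was 27.8-fold higher in WT MEFs (4.80 ± 0.19, adjusted p = 4.03e-08) and Fst 9.70-fold (3.28 ± 0.26, adjusted p = 4.11e-06). For Bmp4 the table gave 1.94 ± 0.19 (adjusted p = 2.03e-05), and the bright probe alone gave 4.08 ± 0.26, or 16.9-fold (limma over 36487 probes on 12 arrays, adjusted p = 8.08e-05). Fstl1 was 2.78-fold higher (1.48 ± 0.33, adjusted p = 0.00545). Bmp7 went the other way, 3.48-fold lower in WT MEFs (-1.80 ± 0.22, adjusted p = 9.84e-05). In each of these 6 genes both WT arrays lay on the same side of both null arrays. Antagonists and ligands were both among them, with an antagonist (Grem1), 2 follistatin-type genes and a ligand (Bmp4) on the WT side, and another ligand (Bmp7) on the null side.

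In MEFs sorted from co-culture the same 6 genes passed with the same signs, where 29.6% of all names passed. These arrays are others than those of the MEFs grown alone. Grem1 was higher in WT MEFs by 5.04 ± 0.61 (adjusted p = 1.33e-04), with 11.67 and 11.64 against 7.72 and 5.52, the last not well above background. The size rests on the null arrays: the difference was 3.94 without null MEFs from co-culture B and 6.14 without A, both past the threshold. Fst was higher by 2.15 ± 0.26 (12.19 and 12.25 against 10.24 and 9.90, adjusted p = 1.35e-04), and Id4 by 1.78 ± 0.19 (12.07 and 12.02 against 10.48 and 10.04, adjusted p = 4.92e-05). Bmp4 was higher by 1.53 ± 0.19 (10.65 and 10.63 against 9.30 and 8.92, adjusted p = 1.70e-04), or by 3.02 ± 0.26 on its bright probe (8.14-fold, adjusted p = 4.75e-04). Bmp7 was lower by 2.38 ± 0.22 (5.66 and 5.49 against 7.70 and 8.20, adjusted p = 2.09e-05).

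Fstl1 was 2.16-fold higher in co-cultured WT MEFs (1.11 ± 0.33, adjusted p = 0.0282), with 16.43 and 16.59 against 15.52 and 15.28. This call was lost when any 1 of the 4 arrays was left out (adjusted p = 0.0613 to 0.132). Bmp1 read 12.92 and 13.12 in WT and 12.51 and 13.08 in null MEFs, overlapping groups; without null MEFs from co-culture B the difference became 0.51 with adjusted p = 0.0343. With the tumor share subtracted and the rest rescaled, the 6 differences were 5.54 for Grem1, 2.80 for Fst, 1.67 for Id4, 2.02 for Bmp4, 1.66 for Fstl1 and -2.65 for Bmp7, and all 6 passed.

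**Figure D2:**
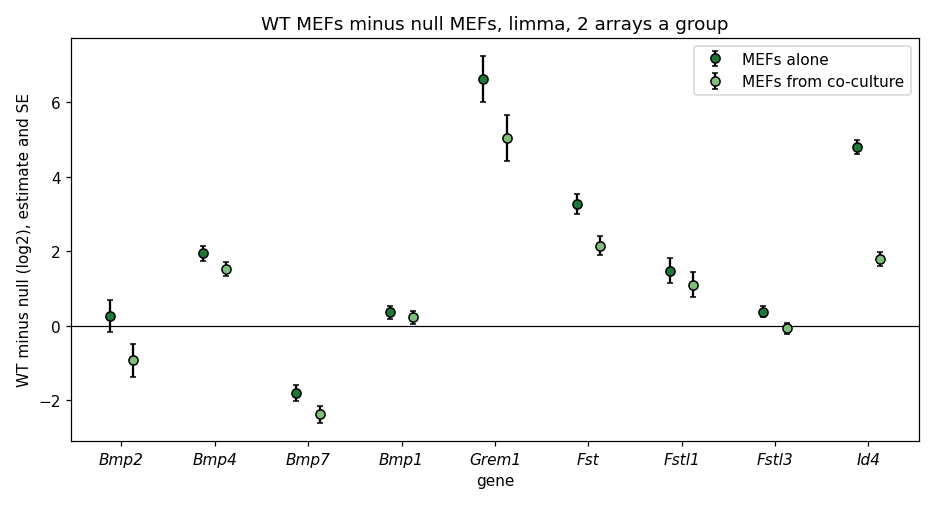
Difference between WT and null MEFs for each gene (log2, with the SE of the limma fit as bars; 2 arrays a group), in MEFs grown alone (dark) and sorted from co-culture (light). The Id4 difference is 4.80 alone and 1.78 in co-culture, and Bmp7 lies below 0 in both.

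Since 3 of the genes that differed most with the Hsf1 genotype and lie above in WT MEFs have an entry among the RefSeq promoters (GRCm38.p6), their 250 bases before the transcription start are shown, 5′ to 3′ on the gene's strand, as the place where heat shock or BMP response letters could occur. Capitals mark matches to GGCGCC or GGAGCC (read as GGCTCC on the other strand), the letters of BMP-type SMAD sites. The pair of heat shock letters searched, GAANNTTC and TTCNNGAA, had no match in these 3 sequences. The first is Id4 (chr13:48260866-48261115, plus strand), the second Grem1 (chr2:113758649-113758898, minus strand) and the third Bmp4 (chr14:46390670-46390919, minus strand).
Id4: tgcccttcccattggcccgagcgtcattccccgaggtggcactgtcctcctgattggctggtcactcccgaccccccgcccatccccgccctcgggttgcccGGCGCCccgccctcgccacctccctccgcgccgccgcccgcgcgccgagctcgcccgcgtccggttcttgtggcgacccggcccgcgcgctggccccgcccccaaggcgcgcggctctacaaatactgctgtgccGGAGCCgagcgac
Grem1: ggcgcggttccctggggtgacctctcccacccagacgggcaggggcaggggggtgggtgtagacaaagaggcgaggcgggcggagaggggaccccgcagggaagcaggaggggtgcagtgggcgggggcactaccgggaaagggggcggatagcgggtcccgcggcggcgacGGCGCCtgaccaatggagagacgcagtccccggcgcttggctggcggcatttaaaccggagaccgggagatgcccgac
Bmp4: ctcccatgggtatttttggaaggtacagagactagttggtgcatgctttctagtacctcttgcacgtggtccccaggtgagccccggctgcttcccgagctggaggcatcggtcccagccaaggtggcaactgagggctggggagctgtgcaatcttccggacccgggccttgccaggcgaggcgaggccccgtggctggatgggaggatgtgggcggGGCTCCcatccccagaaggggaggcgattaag

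Id4 held GGCGCC once, starting 148 bases before the transcription start, and GGAGCC once, at 13 bases. Grem1 held GGCGCC once, at 78 bases, and Bmp4 held GGCTCC once, at 32 bases. Over 32851 promoters of the same length, 9.59% held GGCGCC and 26% held GGAGCC on either strand, while 6.69% held GAANNTTC and 7.17% held TTCNNGAA. Of the 9 genes 5 had an entry. The Fstl1 promoter held GAAGATTC at 203 bases, a match to the first heat shock pattern, and GGAGCC at 106 bases, and Fstl3 held none of the 4. A match is a string of letters, not a shown binding site. The windows of the 3 genes are rich in G and C, with 75.6% in Id4, 72% in Grem1 and 63.2% in Bmp4.

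Tumor cells sorted from co-culture with WT MEFs differed from tumor cells alone in 6 of the 9 genes, where 11.8% of all names passed. Bmp2, Bmp4, Grem1, Fstl1 and Id4 were higher and Fstl3 was lower. With null MEFs as partners 5 genes were higher and none lower (Bmp2, Bmp4, Fst, Fstl1 and Id4), where 19.7% of all names passed. These comparisons share the 2 arrays of tumor cells alone. Fewer cells of a type and less RNA per cell cannot be told apart in sorted bulk RNA. The gain is therefore given as a share of the MEF level, which can gauge MEF RNA only for genes higher in MEFs. That level is from sorted MEFs with no mitomycin C named, whereas the MEF partners of these tumor cells had received it. How far this difference enters the shares was not tested. Id4 was 4.36 higher in tumor cells alone than in null MEFs alone, so its share there gives no such gauge. The same holds for genes near the MEF level, among them Id4, Bmp7 and Fstl3 with WT MEFs and Fst with null MEFs.

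**Figure D3:**
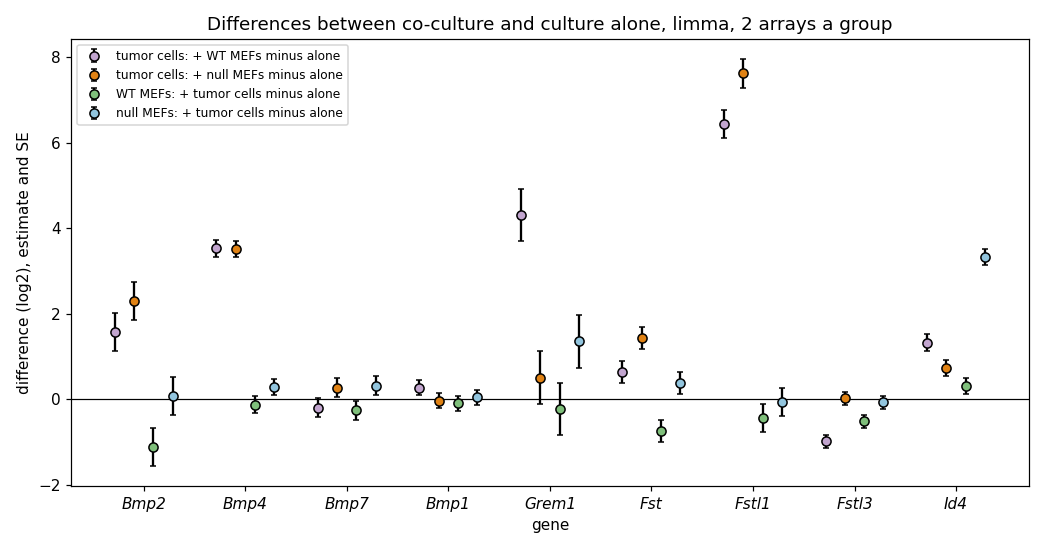
Difference between co-culture and culture alone for each gene (log2, with the SE of the limma fit as bars; 2 arrays a group), for tumor cells with WT or null MEFs and for WT and null MEFs with tumor cells. Grem1 departs from 0 in tumor cells with WT MEFs (4.31) but by only 0.51 with null MEFs, and Id4 is the 1 gene that passed in a MEF comparison (3.32 in null MEFs).

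Grem1 rose in tumor cells with WT MEFs to 10.36 and 9.76, from 6.43 and 5.06 alone, at least 19.9-fold (4.31 ± 0.61, adjusted p = 0.00130). With null MEFs it read 5.89 and 6.60, overlapping tumor cells alone (0.51 ± 0.61, adjusted p = 0.608). On the single probe it was well above background in tumor cells with null MEFs B, with a signal of 69.3 against 5.79 in tumor cells alone B, a difference of 3.52 (1 array each). With WT MEFs the same probe differed by 7.42 ± 1.59 from that 1 array of tumor cells alone. Neither of these single-probe differences passed. Between the 2 partners the difference was 3.81 ± 0.61 (14.01-fold, adjusted p = 0.0032), and on the 12 scanner arrays, which hold 1 array of tumor cells with null MEFs, 3.90 with adjusted p = 0.267. Co-cultured null MEFs themselves read 7.72 and 5.52, so a share of their level has no firm base. Array A of tumor cells alone lies above array A with null MEFs. The level gained with WT MEFs was 38.7% and 24.9% of the MEF level, above 100% and 99.1% of the MEF-typical names. With that typical share subtracted and the rest rescaled, the rise was 4.05 (adjusted p = 0.00351) and the partner difference 3.71 (adjusted p = 0.00385).

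Id4 rose from 11.19 and 11.41 to 12.54 and 12.72 with WT MEFs (2.52-fold, 1.33 ± 0.19, adjusted p = 0.00123) and to 12.09 and 11.96 with null MEFs (1.65-fold, 0.73 ± 0.19, adjusted p = 0.0219). The 3 tumor cell groups did not overlap. Its gain was 81.5% and 99.9% of the level in WT MEFs and 148% and 117% of that in null MEFs, and with the MEF share subtracted and rescaled the rises were 1.37 and 0.91, both still past the threshold. The smaller rise was lost without tumor cells with null MEFs A (adjusted p = 0.0891) or B (0.0654) or without tumor cells alone A (0.113), and on the 12 scanner arrays the adjusted p was 0.0668 with WT and 0.437 with null MEFs. The difference between partners, 0.61 ± 0.19, did not pass (adjusted p = 0.0744).

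Fstl3 was the 1 gene that fell. It went from 11.87 and 12.01 to 10.81 and 11.11 with WT MEFs (1.97-fold lower, -0.98 ± 0.15, adjusted p = 0.00209) and read 11.83 and 12.11 with null MEFs. Tumor cells with WT MEFs lay 1.01 ± 0.15 below those with null MEFs (adjusted p = 0.0021), and both arrays of the first group lay below all other arrays of the series. With the MEF share subtracted and rescaled the fall was -1.09 (adjusted p = 0.00267) and the partner difference -1.13 (adjusted p = 0.00144). With this fall the gain was negative, at -55.4% and -44.8% of the level in co-cultured WT MEFs, which read 11.81 and 12.01.

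Bmp2 rose to 6.78 and 6.86 with WT MEFs (1.58 ± 0.44, at least 2.99-fold, adjusted p = 0.0413) and to 6.64 and 8.45 with null MEFs (2.30 ± 0.44, at least 4.93-fold, adjusted p = 0.0046). Its gain with WT MEFs was 7.0% and 7.58% of the MEF level, beside the typical 7.35% and 7.36%, and with the MEF share subtracted and rescaled the difference was 0.08 (adjusted p = 0.861). With null MEFs the gain was 3.09% and 15.6%, below the typical 9.25% and 22.9%. The difference after subtraction and rescaling was -0.65, a value set by the floor of the arrays. The call with WT MEFs was also lost without any 1 of its 4 arrays (adjusted p = 0.124 to 0.15).

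Fstl1 rose to 12.38 and 12.52 with WT MEFs (6.44 ± 0.33, 87.1-fold, adjusted p = 2.65e-06) and to 12.96 and 14.30 with null MEFs (7.63 ± 0.33, 198-fold, adjusted p = 1.30e-07). The gain was 5.64% and 6.21% of the level in WT MEFs, just under the typical share. With null MEFs it was 18.2% and 46.3%, above 84% and 86.4% of the MEF-typical names. The 5th to 95th percentiles of those names were 1.73% to 40.5% on array A and 6.59% to 101% on array B, so Fstl1 lay within their spread. Subtraction and rescaling left -1.56 with WT MEFs, a value set by the floor of the arrays. It left 6.89 with null MEFs, where only the median share was removed.

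Bmp4 stood at 8.81 and 8.78 with WT MEFs and 8.45 and 9.12 with null MEFs, above 5.19 and 5.33 in tumor cells alone, where it was not well above background. In the averaged table this is a rise of at least 3.53 (adjusted p = 3.62e-06) and at least 3.52 (adjusted p = 6.42e-07) on the log2 scale. On the bright probe the fitted differences, against the dim signal of 1 array of tumor cells alone, were 9.12 (adjusted p = 1.4e-05) and 9.36 (adjusted p = 1.18e-05), and the partners differed by -0.24 ± 0.32 (adjusted p = 0.776). In the table its gain was 25.7% and 25.2% of the level in WT MEFs, above 98.5% and 99.1% of MEF-typical names. On its bright probe, with signals of 10300 and 8447 in tumor cells with WT MEFs, the gain was 10.4% and 8.15%, above 74.9% and 65.1% of 900 MEF-typical probes, whose medians were 6.89% and 6.86%. The share of Bmp4 was thus nearer the typical one on this probe than in the average. In tumor cells with null MEFs B the bright probe gave 11020, a gain of 85.5% of the level in null MEFs. The median over 812 probes was 23.4%, with 5th to 95th percentiles of 2.58% to 89.4%.

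Fst read 9.71 on both arrays with WT MEFs, a difference of 0.65 ± 0.26 that did not pass (adjusted p = 0.148), and 9.97 and 11.02 with null MEFs, where the rise of 1.43 ± 0.26 passed (2.70-fold, adjusted p = 0.00389). That call was lost when each cell type was fitted alone (limma, adjusted p = 0.0552). The gain of Fst was 6.30% and 6.31% of the level in WT MEFs, and 42.9% and 142% of the level in null MEFs. The share with null MEFs gives no gauge of MEF RNA, since Fst in tumor cells alone lay near its level in null MEFs alone. Bmp1 and Bmp7 did not pass with either partner: Bmp1 read 12.55 and 12.35 with WT and 12.05 and 12.26 with null MEFs, and Bmp7 5.58 and 6.02 with WT and 6.03 and 6.50 with null MEFs. As a share of the WT MEF level the gain was 16.2% and 6.78% for Bmp1 and -34.1% and 1.72% for Bmp7. The 95% intervals of the log2 difference with WT MEFs were -0.12 to 0.66 for Bmp1 and -0.69 to 0.30 for Bmp7.

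**Figure D4:**
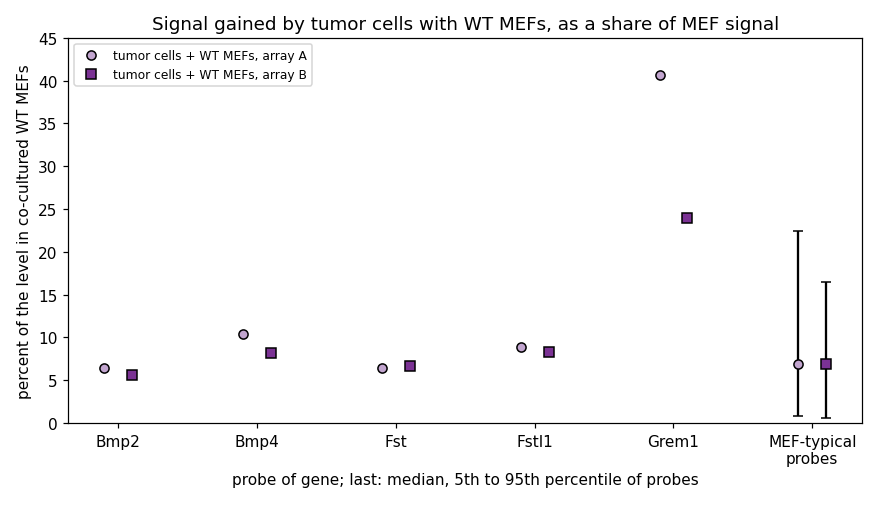
Signal gained by tumor cells with WT MEFs over tumor cells alone, as a percent of the signal in co-cultured WT MEFs (vertical axis), for single probes of 5 genes on arrays A and B; at the right, the median over 900 MEF-typical probes with bars from their 5th to 95th percentile. Bmp2, Bmp4, Fst and Fstl1 lie between 5.59% and 10.4%, and Grem1 at 40.7% and 23.9%.

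Directly compared, tumor cells with WT MEFs and with null MEFs differed in 2 of the 9 genes, Grem1 (higher with WT) and Fstl3 (lower with WT), where 9.5% of all names passed. Fstl1 was 1.18 ± 0.33 lower with WT MEFs (adjusted p = 0.051) and Fst 0.78 ± 0.26 lower (adjusted p = 0.0963). Both passed, as did Bmp2, without tumor cells with null MEFs A, which leaves the array highest in MEF-typical genes: Fstl1 was then at -1.85 (adjusted p = 2.00e-04), Fst at -1.31 (adjusted p = 4.93e-04) and Bmp2 at -1.63 (adjusted p = 0.00134). With slide as a replicate block Fstl1 passed too (adjusted p = 0.0251).

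In WT MEFs none of the 9 genes passed after co-culture, where 10.5% of all names did (limma); 3 had an unadjusted p under 0.05, all lower in co-culture. Fstl3 read 11.81 and 12.01 against 12.47 and 12.39 alone (-0.52 ± 0.15, adjusted p = 0.0574, and 0.0142 with slide as a replicate block). Bmp2 read 9.95 and 10.07 against 11.06 and 11.18 (-1.11 ± 0.44, adjusted p = 0.149), and Fst 12.19 and 12.25 against 12.90 and 13.03 (-0.74 ± 0.26, adjusted p = 0.11). In each of these 3 genes the groups did not overlap. The share of tumor-typical genes on these arrays was 37.6%; with it subtracted and the rest rescaled the 3 differences were -0.15, -0.49 and -0.16.

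In null MEFs Id4 was the 1 gene of the 9 that passed, where 3.15% of all names did. It rose 9.99-fold, from 6.86 and 7.03 to 10.48 and 10.04 (3.32 ± 0.19, adjusted p = 1.67e-06). Its gain equalled 31.2% and 22.3% of the level in the tumor cells, above 94.4% and 84.4% of the 90 tumor-typical names. The 5th to 95th percentiles of those names were 2.57% to 32.3% on array A and 1.27% to 38.9% on array B, so Id4 lay within their spread. With the tumor share subtracted and the rest rescaled the rise was 2.91 (limma, adjusted p = 5.32e-05), where only the median share was removed. WT MEFs went from 11.48 and 12 to 12.07 and 12.02 (0.31 ± 0.19, adjusted p = 0.392). The test of the difference between the genotypes' responses gave -3.02 ± 0.27 (adjusted p = 1.57e-04), and -3.13 after subtraction and rescaling (adjusted p = 5.95e-04). Id4 was the 1 gene of the 9 to pass that test, where 3.03% of all names did.

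Grem1 in null MEFs was split between arrays: co-culture gave 7.72 on array A and 5.52 on array B, beside 5.29 and 5.23 alone. The difference of 1.36 ± 0.61 did not pass (adjusted p = 0.459); without null MEFs from co-culture B it was 2.46 with adjusted p = 0.0274. The remaining 7 genes had differences of -0.07 to 0.38 in null MEFs. Fst had the next smallest p in the test between responses (-1.13 ± 0.37, adjusted p = 0.188).

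Other genes of the pathway were read from lists of ligands, modulators, receptors, SMADs and targets. Between the genotypes grown alone 15.9% of all names were higher and 17.9% lower in WT MEFs, and in tumor cells with WT MEFs 7.04% were higher and 4.77% lower, the shares beside which the list counts stand. Among 13 BMP target genes, 8 were higher and none lower in tumor cells with WT MEFs, with a median difference of 1.09 beside -0.04 over all names. With null MEFs 6 were higher and none lower, with a median of 0.78 beside -0.09. Hey1, a transcriptional repressor, rose by 1.95 ± 0.11 with WT MEFs (adjusted p = 5.49e-06) and by 1.36 ± 0.11 with null MEFs (adjusted p = 1.78e-05). Id1 and Id3, relatives of Id4, rose by 2.59 ± 0.19 (adjusted p = 2.21e-05) and 3.02 ± 0.29 (adjusted p = 9.78e-05) with WT MEFs and by 1.95 and 3.05 with null MEFs.

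The gain of the targets, as a percent of the level in WT MEFs, varied widely on arrays A and B. It was 151% and 134% for Hey1, 161% and 138% for Id1, 87.7% and 81.4% for Id2 and 52.5% and 40.2% for Id3, above the typical 7.35% and 7.36%. It was 10.4% and 13.8% for Dlx2, 9.21% and 8.07% for Atoh8, 4.48% and 4.34% for Msx1 and 6.64% and 5.48% for Alpl. The arrays differed for Runx2 (25.8% on B and less on A), Dlx5 (4.15% and 64%), Msx2 (7.42% and -50%) and Dlx3 (11.4% and -24%), and Sp7 was below its level in tumor cells alone on both (-6.24% and -22.8%). With null partners the gain was 40.6% and 44.4% for Id1, 24.5% and 53.4% for Id2 and 13.7% and 43.3% for Atoh8, beside a typical 9.25% and 22.9%; Hey1 was at 247% and 263%. Targets beyond the rule of 3 per list were named after their values were seen. In WT MEFs the list's median after co-culture was -0.51, beside -0.04 over all names, with 1 gene higher and 1 lower: Hey1 rose (1.83 ± 0.11, adjusted p = 1.87e-06) and Alpl, alkaline phosphatase, fell (-1.02 ± 0.25, adjusted p = 0.0267), and in null MEFs Hey1 alone passed (1.48 ± 0.11, adjusted p = 2.08e-05). None of the 13 passed the limma test between the genotypes' responses, where the list's median was -0.44. The share of tumor-typical genes in co-cultured WT MEFs was 37.6%, and the list's median in tumor cells alone minus WT MEFs alone was -1.12. How far tumor RNA enters the list's median in WT MEFs and the fall of Alpl was not tested.

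Among 12 SMADs and regulators tested, 2 were higher and none lower in tumor cells with either partner, the inhibitory Smad6 (2.10 ± 0.23 with WT, adjusted p = 2.36e-04; 1.69 ± 0.23 with null, adjusted p = 5.42e-04) and Smad9 (1.32 ± 0.29, adjusted p = 0.0149; 2.30 ± 0.29, adjusted p = 3.47e-04). In WT MEFs both fell after co-culture, Smad6 by 0.86 and Smad9 by 1.13, on arrays with a tumor-typical share of 37.6%. No share of partner RNA is given for Smad6 or Smad9, and how far it enters their differences was not tested. Between genotypes grown alone 8 of the 12 were higher in WT MEFs and 1 lower, led by Zeb2 (1.83 ± 0.24, adjusted p = 1.37e-04) and Smurf2 (0.77 ± 0.13, adjusted p = 0.00112), with Tob1 lower (-1.5 ± 0.15, adjusted p = 2.53e-05).

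Of 12 further antagonists and modulators tested, 5 were higher and 2 lower in WT than in null MEFs grown alone, where 33.8% of all names passed. Bmper, a chordin-like modulator, differed most (5.64 ± 0.17, adjusted p = 9.49e-09), followed by Nog, the antagonist noggin (2.21 ± 0.18, adjusted p = 3.91e-06), while Chrdl2 was lower (-2.21 ± 0.17, adjusted p = 3.41e-06). Bmper rose in null MEFs after co-culture (2.35 ± 0.17, adjusted p = 1.09e-05) and, like Id4, differed between the genotypes' responses (-2.34 ± 0.24, adjusted p = 3.65e-04), as did Nog (-1.23 ± 0.25, adjusted p = 0.0244), which fell in WT MEFs (-1.07 ± 0.18, adjusted p = 0.00268). In tumor cells Chrdl1, another chordin-like gene, was higher with WT MEFs than alone (1.42 ± 0.16, adjusted p = 2.50e-04) and than with null MEFs (1.32 ± 0.16, adjusted p = 4.08e-04), the same order as Grem1. Shares of partner RNA are not given for Bmper, Nog or Chrdl1, and how far such RNA enters their co-culture differences was not tested.

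Of 7 further BMP ligands tested, 3 were higher and none lower in WT MEFs grown alone, led by Gdf10, not well above background in null MEFs (5.01 ± 0.33, adjusted p = 1.11e-06) and Bmp6 (1.66 ± 0.28, adjusted p = 8.52e-04). Of 8 activin and related ligands, 2 were higher and 2 lower, with Inhba, the subunit of activin A that follistatin binds, at 3.67 ± 0.11 (adjusted p = 9.72e-09). Inhba rose in null MEFs after co-culture (1.15 ± 0.11, adjusted p = 1.11e-04) and fell in tumor cells with WT MEFs (-1.21 ± 0.11, adjusted p = 8.26e-05), where Inhbb rose (2.35 ± 0.24, adjusted p = 1.57e-04). Of 12 receptors and co-receptors, 3 were higher and 2 lower in WT MEFs alone, a share near the 33.8% of all names, led by Eng, the co-receptor endoglin (4.08 ± 0.19, adjusted p = 1.18e-07). In tumor cells 2 receptors were higher with WT MEFs, among them Tgfbr3 (1.03 ± 0.18, adjusted p = 0.00485). For Inhba, Inhbb and Tgfbr3 no share of partner RNA is given, and how far such RNA enters was not tested. Of 3 tolloid-type proteases and enhancers tested, 2 were higher and 1 lower in WT MEFs alone: Tll1 by 1.54 ± 0.33 (adjusted p = 0.00383), Pcolce by 0.42 ± 0.14 (adjusted p = 0.0385), and Pcolce2 at -0.48 ± 0.11 (adjusted p = 0.00685).

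Over the 14 arrays, the genes whose levels followed each member most closely were found by Pearson correlation among 14341 names, as a description in which all points share the same 7 groups. Fstl1 ran with Col1a2 (r = 0.996), a collagen chain, and with Bicc1 and Ppic. Bmp2 ran with Synm (r = 0.997) and Il17d, and Bmp4 with Nsg1 (r = 0.995), Osmr and Itih2. Grem1 ran with Itga8 (r = 0.978), Pdgfrb and Dsp, Fst with Tubb2a (r = 0.984), Hecw2 and Col5a3, and Bmp1 with Adamts10 (r = 0.971), Crtap and Nicn1. Id4 ran with Ltbp2 (r = 0.988), Sod3 and Csgalnact1, and Bmp7 with Ptchd1 (r = 0.981), Defa-rs7 and Steap4. Fstl3 had no close follower, its highest r being 0.890 with Scarb2, then D5Ertd579e and Pfkfb3.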

How the data were processed

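Total RNA (0.5 ug per array, per the labels' protocols) of 14 samples in 7 groups of 2 was measured on 1-colour Agilent arrays of 59305 spots (design 28005). The authors' deposited value table holds log2 values per gene name; how they were scaled between arrays is not given in the sources used here, and array medians were 6.33 to 6.40. The scale was read off by setting the table beside the scanner files, whose deposited intensity values are Agilent processed signals, with spatial and multiplicative detrending on and the separate background correction off, from software version 10.1.1.1 per the file headers and 9.1 per the submitters' processing notes. Among 10299 names with several probes, table values ran with the spots' mean log2(signal + 20), with r = 0.997 and slope 0.933, so the table understates differences against dim groups. The 7 A arrays lay on slide 1 and the 7 B arrays on slide 2. The 2 faulty scanner files correlated with sound arrays by at most 0.475 and 0.302, against at least 0.921 among the sound 12, on which 53.1% to 63.4% of spots were well above background; in the value table the lowest r was 0.935.

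Names well above background on both arrays of at least 1 group (25840; flags of faulty files left out) were fitted with limma 3.58.1 in R 4.3.3 (7 group means, 7 residual degrees of freedom), with Benjamini-Hochberg adjustment over all of them per comparison at 0.05. The fit was tested on simulated data. The share of one cell type in another is the linear level gained in co-culture as a percent of the level in the other sorted cell type; in the rescaled correction the median share was subtracted and the rest divided by 1 minus the share. Single probes were scaled to each array's 75th percentile. Arrays of a slide deviated together (r of deviations 0.092 to 0.599, median 0.299), a check of pairing by replicate letter that not every pair passed at 0.1. The alternatives with a subtracted tumor share, with rescaling or with single probes were chosen after seeing the data. Motifs were searched on both strands in the 250 bases before the start. Named genes were the 9 members, Hsf1, at most 3 genes per list, comparison and direction by smallest p, and the 3 names best correlated with each member, of which a single name is not reported here. The members and lists were chosen with earlier results of these data known.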

Additional observations from a re-analysis of the deposited data

Results flagged for a closer look

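The Id4 response to co-culture differed between MEF genotypes by -3.02 on the log2 scale (WT minus null, limma, adjusted p = 1.57e-04), with differences of -3.03 on slide A and -3.00 on slide B. The level in sorted tumor cells differed between partners (WT minus null partner, limma) for Grem1 by 3.81 (adjusted p = 0.0032), with 4.46 and 3.15 on slides A and B. For Fstl3 it differed by -1.01 (adjusted p = 0.0021), with -1.01 and -0.999. Among the 9 genes, these passed the test of a difference between the genotypes' responses or between partners. Genes of the pathway lists passed such tests too, among them Bmper, Nog, Inhba and Chrdl1. Grem1 read 11.98 and 11.79 in WT MEFs alone and was not well above background in null MEFs alone. How far MEF RNA enters the partner difference of Grem1, or tumor RNA the Id4 response in null MEFs, was not tested beyond the shares given. Slide A holds tumor cells with null MEFs A, whose scanner file was faulty.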

How the results depend on the processing

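Counts of the 9 genes that passed were recomputed under each alternative; for those that moved by over 1.5 times the cause was not tested unless named. With all 14 scanner files, the 2 faulty ones included, they were 1 for tumor cells co-cultured with the WT genotype, 1 with the null genotype, 0 between partners (main 2), 3 between co-cultured genotypes, 0 for the difference of responses and 4 for tumor cells against WT MEFs. The shares of all names that passed there were 0.558%, 1.11%, 0.406%, 2.78%, 0.0658% and 12.7%, in the same order. Fstl3 with WT MEFs turned to 1.07. Requiring a level above background in every group leaves fewer of the 9 genes to test, and gave 3, 2, 1, 2, 2, 3 and 3 in tumor cells with WT partners, with null ones, between partners, genotypes alone, genotypes co-cultured, and tumor cells against WT and null MEFs. Of the 16766 names tested there 12.5%, 19.6%, 8.15%, 35.4%, 30.1%, 55.4% and 56.7% passed, in the same order. Fitting each cell type alone gave 3 in tumor cells with null MEFs, 3 in co-cultured WT MEFs and 2 for the responses. The shares of all names were 8.68%, 13.5% and 3.57%. On 12 scanner arrays 1 gene passed in WT MEFs, beside 6.73% of all names. With normexp 4 passed there, beside 9.24%, and 2 for the responses, beside 2.16%. Counts between partners are left out for these 12 arrays, which hold 1 array of tumor cells with null MEFs. Subtracting the MEF share gave 5 between partners, with or without rescaling, beside 13% of all names with it and 17.9% without. Unscaled, it moved the median of all names with WT MEFs to -0.16. It turned Bmp2 to -0.028 with WT MEFs, to -0.91 (-0.65 rescaled) with null MEFs and to 0.88 (0.73 rescaled) between partners, Fstl1 to -1.67 (-1.56 rescaled) with WT MEFs and Bmp7 to -0.77 with null MEFs. The floor of the arrays set the Bmp2 values with null MEFs and the Fstl1 values, and so enters the Bmp2 values between partners. Subtracting the tumor share without rescaling, which took the median of all names in WT MEFs from -0.04 to -0.79, gave 6 in WT MEFs and 3 for the responses, and turned Id4 in WT MEFs to -0.90. Of all names 86% passed there in WT MEFs and 45.7% for the responses. With slide as a replicate block 1 gene (Fstl3) passed in WT MEFs, beside 14% of all names, and Fstl3 passed between genotypes alone (limma, adjusted p = 0.0243). Counts elsewhere stayed within 1.5 times. Leaving out 1 array gave 2 to 5 between partners (5 without tumor cells with null MEFs A) and 1 to 2 in null MEFs (2 without null MEFs from co-culture B). Id4 in null MEFs kept its call in all 14 alternatives run, where those that subtract a tumor share remove only its median. The number of arrays, 2 a group, limits the precision.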
